A study of Mus musculus with 2 samples.

Results

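Imprinted genes are expressed mainly from the copy inherited from 1 parent. A region of DNA methylation set in the egg or sperm, called a germline differentially methylated region (germline DMR), marks 1 copy and controls the cluster of genes around it. Many of these genes govern fetal and placental growth and are switched down after birth, whereas others work in most adult cells. Chromatin accessibility was examined at 34 imprinted genes of the mouse, 31 protein-coding genes and 3 genes for noncoding RNAs, out of 55450 annotated genes. The members were given as a list of names, chosen for their known imprinting, and all 34 were found in the annotation, in 16 clusters.

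DNase-seq treats nuclei with DNase I, an enzyme that cuts accessible DNA, and sequences the cut ends. It was run on thymus, the organ in which T cells mature, from female B6CASTF1/J mice aged 18 to 20 months, which are F1 hybrids of the B6 and CAST strains and carry no transgene or treatment in the labels. The series holds 2 libraries of 1 group, replicates 1 and 2. They have biosample records of their own but 1 donor record in common, so whether they stem from different animals is not known and their spread may be only technical. With 1 group there was no other age, sex or tissue to compare with, and every value is a description with no test between conditions. The files give no counts per parental copy, so each value sums the maternal and the paternal copy, and it cannot be told from them which copy was cut.

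Each library had a shorter list of peaks (50648 and 49872 for replicates 1 and 2) and a longer list (77453 and 79004), and a list of footprints, short stretches protected from cutting within accessible DNA (223227 and 247677). The sequencing depth is unknown. A promoter was called open when a peak of the shorter list overlapped the 1 kb on either side of any annotated start site of the gene in both libraries. The promoter signal is the deposited value of the strongest such peak, a number without a stated unit, given for replicate 1 and then replicate 2. All 12 of 12 thymocyte marker genes were open by this rule, as were 4 of 8 genes of thymic epithelium, 3 of 8 of fibroblasts and 2 of 8 of neurons. By the same rule 27.1% of all genes and 53.5% of protein-coding genes were open, and only the thymocyte share lay above the latter. Of the genes of thymic epithelium, Ly75 (6.89), Aire (3.76), Prss16 (2.46) and Epcam (1.39) were open, Krt8 had a longer-list peak in replicate 1 only, and Foxn1, Psmb11 and Krt5 had no promoter peak in either list. In tissue, few cells with an open site and many cells with a weakly open site cannot be told apart.

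The sequences shown first lie upstream of H19, a maternally expressed noncoding RNA that shares its enhancers with the fetal growth factor gene Igf2. This stretch is the imprinting control region of the locus, where the insulator protein CTCF binds the unmethylated maternal copy. Neither gene had an open promoter, yet 3 peaks of the shorter list lay upstream of H19 in both libraries and overlapped pairwise. Their sequence, like all others below from the C57BL/6J reference and not from the animals, is shown for the peaks of replicate 2 in the direction of H19 (minus strand, mm10), with capitals at matches to the 14-letter CTCF pattern of this region and to TGCCGC, the letters bound by the imprint-keeping protein ZFP57 when methylated. Adjoining matches run together.
H19 upstream peak 1, chr7:142580268-142580379: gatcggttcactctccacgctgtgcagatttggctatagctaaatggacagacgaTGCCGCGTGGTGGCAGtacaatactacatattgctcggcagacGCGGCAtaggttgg
H19 upstream peak 2, chr7:142580696-142580840: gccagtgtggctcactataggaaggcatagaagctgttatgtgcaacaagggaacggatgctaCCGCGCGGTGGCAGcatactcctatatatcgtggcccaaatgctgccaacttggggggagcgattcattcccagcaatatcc
H19 upstream peak 3, chr7:142581749-142581858: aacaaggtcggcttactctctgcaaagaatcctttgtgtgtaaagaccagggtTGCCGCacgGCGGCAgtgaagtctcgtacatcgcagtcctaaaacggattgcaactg

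The first of these peaks had a signal of 0.805 in replicate 1 and 0.620 in replicate 2, the second 0.814 and 0.685, and the third 0.644 and 0.587. All are below the median signal of the shorter lists, 1.66 and 1.43, and replicate 1 was the higher at each. The CTCF pattern of the first peak lies 2166 bp upstream of the H19 start site and those of the second 2621 bp upstream, and both lay under a footprint in both libraries. A further copy of the pattern, 3891 bp upstream, was reached only by a peak of the longer list in replicate 1 and had no footprint. Of windows of 300 bp around the peak centres, 21 of 50648 (0.0415%) held the pattern in replicate 1 and 17 of 49872 (0.0341%) in replicate 2. These counts include the windows at H19, the region from which the pattern is known. Here and below both strands were searched, and a match is a description of the letters, not a bound site. The sites are printed with 8 flanking bases on each side. Their letters in capitals are alike because the search pattern sets them, so this likeness is no result.
H19 site 1, chr7:142580309-142580322: agacgatgCCGCGTGGTGGCAGtacaatac
H19 site 2, chr7:142580764-142580777: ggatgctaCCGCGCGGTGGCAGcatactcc
H19 site 3, chr7:142582034-142582047: gggagttgCCGCGTGGTGGCAGcaaaatcg

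**Figure D1:**
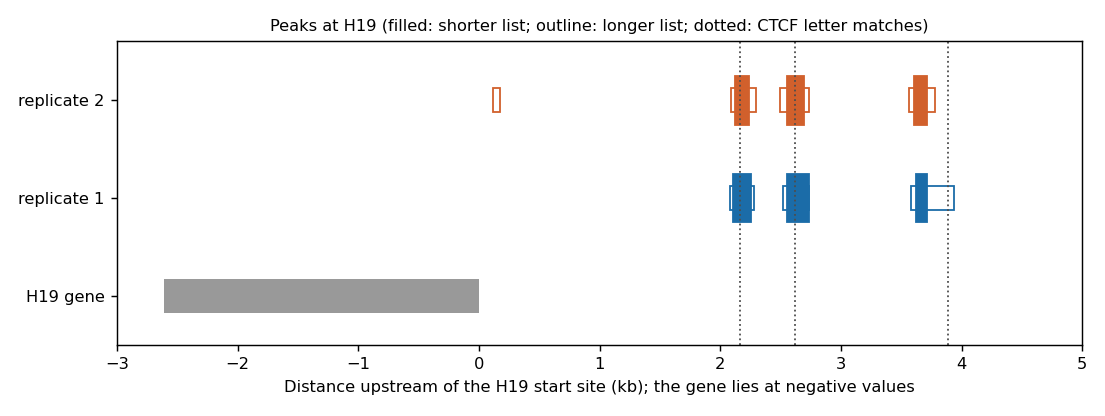
Peaks at H19 in each library, by distance upstream of the H19 start site in kb. Filled bars are peaks of the shorter list, outlined bars peaks of the longer list, dotted lines the 3 matches to the CTCF pattern and the grey bar the H19 gene. The 3 filled bars of each library lie over the same stretches, and the matches 2166 and 2621 bp upstream fall inside the first and second.

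The H19 promoter itself was covered only in the longer list of replicate 2, with a signal of 0.411. None of the 5 annotated start sites of Igf2 had a peak of any list in either library.

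Over all members, 16 of 34 promoters were open in both libraries (47.1%, exact binomial 95% interval 29.8 to 64.9, counting error only), 16 in replicate 1 and 17 in replicate 2. The background was 27.1% over all annotated genes and 53.5% over protein-coding genes, so the members' share lay between the 2 and its interval held the value for protein-coding genes. In the longer list 19 of 34 members had a promoter peak in both libraries (55.9%), beside 30.3% of all genes and 58% of protein-coding genes. Footprints lay within 1 kb of a start site in both libraries for 17 of 34 members, the 16 with an open promoter and Ascl2, against 29.1% of all genes and 56.4% of protein-coding genes. Base runs with a q-value under 0.05, the authors' own false discovery rate, were present near a start site in both libraries for 19 of 34 members, beside 31% of all genes and 58.8% of protein-coding genes. In 12 members no promoter peak of either list was found in either library, beside 66% of all and 37.6% of protein-coding genes.

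Where a promoter was open, its signal was mostly low. The median mean signal of the 16 open members was 2.96, beside 5.59 over the 11753 open protein-coding genes, and 12 of the 16 lay under that median. In 6 members the mean signal was below 1, in 6 it lay between 1 and 5, and in 4 above 5. With only the stronger 50% of each library's peaks, 10 members counted as open, without those 6 below 1 (Mest, Mkrn3, Peg10, Peg3, Plagl1 and Sgce). This loss restates their signals, since the cut is the median signal of each list, 1.66 in replicate 1 and 1.43 in replicate 2. The share of all genes open under this cut is not given here. The signal as deposited was higher in replicate 1 for 11 members and in replicate 2 for 5. After subtraction of the median log2 ratio of replicate 2 to replicate 1 over 37494 shared peaks (-0.17), 15 of the 16 log2 ratios lay within the range that holds the middle of all shared peaks from the 5th to the 95th percentile (-0.85 to 0.60), and Tssc4, at 0.70, lay above it. The clusters are described in turn, with percentiles of the mean signal among the open protein-coding genes.

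**Figure D2:**
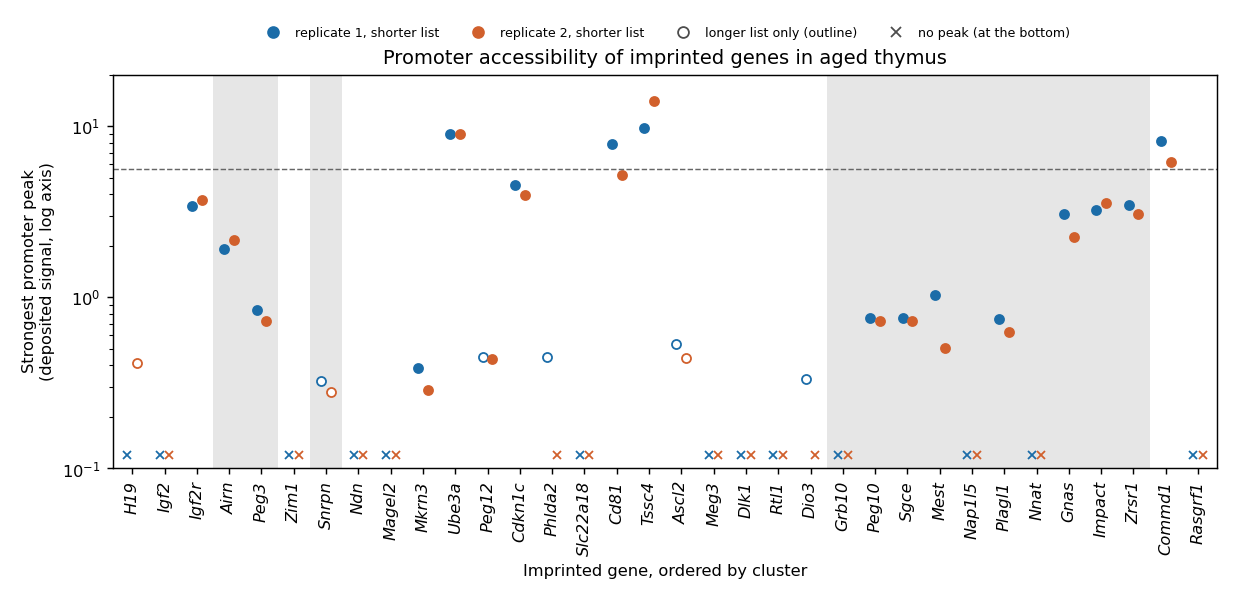
Signal of the strongest promoter peak of each imprinted gene on a log axis, in replicate 1 (blue) and replicate 2 (orange), ordered by cluster. Filled points are peaks of the shorter list, outlined points genes with a peak in the longer list only, and crosses at the bottom genes with none; grey bands mark genes with a germline DMR at a promoter and the dashed line the median of open protein-coding genes, 5.59. The points above the line in both libraries are Ube3a, Tssc4 and Commd1, and no gene in a grey band reaches it.

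The 4 members with the strongest promoter peaks were Tssc4, Ube3a, Commd1 and Cd81. Tssc4, which acts in assembly of the splicing machinery, had a signal of 9.71 in replicate 1 and 13.98 in replicate 2 (11.8 ± 3.02, SD, n = 2), at percentile 85.2. Ube3a, a ubiquitin ligase known to be imprinted in neurons and expressed from both copies in most other cells, had 8.95 and 8.97 (8.96 ± 0.0149), the closest pair of the 4. Commd1, which takes part in copper handling and control of NF-kB, had 8.16 and 6.19 (7.18 ± 1.39). Cd81, a tetraspanin on the surface of lymphocytes, had 7.90 and 5.19 (6.54 ± 1.92), and its strongest peak also lay near a start of the gene R74862. Only Tssc4 was higher in replicate 2 by more than a small margin, and Cd81 fell below the protein-coding median in that library.

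The upstream parts of the Ube3a and Igf2r peaks are shown as examples of CpG-rich promoters, with a mean of 32.5 and 33.5 CpG in the 300 bp window at the strongest promoter peak. Both are given in the direction of the gene, with capitals at GGGGCGGGG, the letters of the SP and KLF family of factors, which 26% of open protein-coding genes held in the 300 bp window at their strongest promoter peak in at least 1 library.
Ube3a, chr7:59228541-59228749, plus strand: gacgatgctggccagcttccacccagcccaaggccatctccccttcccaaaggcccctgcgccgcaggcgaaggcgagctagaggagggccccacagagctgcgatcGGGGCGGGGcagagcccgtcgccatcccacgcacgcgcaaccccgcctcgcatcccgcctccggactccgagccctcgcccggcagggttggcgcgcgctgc
Igf2r, chr17:12769701-12769920, minus strand: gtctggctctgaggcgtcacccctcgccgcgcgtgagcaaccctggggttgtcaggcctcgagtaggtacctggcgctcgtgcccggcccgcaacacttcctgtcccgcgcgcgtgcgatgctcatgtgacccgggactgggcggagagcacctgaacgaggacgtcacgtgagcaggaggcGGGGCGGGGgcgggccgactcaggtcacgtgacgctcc

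Igf2r encodes the receptor that takes IGF2 into lysosomes, and Airn is the paternally expressed antisense RNA that silences it on the same copy. Both promoters were open. Igf2r had 3.42 and 3.72 (3.57 ± 0.212), at percentile 31.7, and Airn 1.91 and 2.17 (2.04 ± 0.188), at percentile 16.7. Each value of Igf2r was above both values of Airn. A peak inside Airn and an intron of Igf2r, chr17:12745861-12746120, had 2.37 and 2.69 and was the strongest in the cluster away from any start site. Further along the Airn intron, a peak at chr17:12810561-12810800 with 2.01 in replicate 1, and 1.02 for its overlapping peak in replicate 2, held a general 12-letter CTCF pattern under a footprint in both libraries.

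Peg3, a paternally expressed zinc-finger gene, had 0.841 and 0.724 (0.783 ± 0.0828), at percentile 3.12, whereas Zim1, its maternally expressed neighbour, had no promoter peak in either list. The peak lay within the first intron of Peg3 rather than at its first exon, and the same peak counted for Usp29, whose start lies close by on the other strand. A second intron peak had 0.537 in replicate 1 and 0.828 in replicate 2. The Peg3 intron is known for a row of sites for the zinc-finger protein YY1, and both peaks, shown for replicate 1 on the minus strand, held its letters AANATGGC, in capitals, reading here as the reverse complement.
Peg3 intron peak 1, chr7:6729462-6729600: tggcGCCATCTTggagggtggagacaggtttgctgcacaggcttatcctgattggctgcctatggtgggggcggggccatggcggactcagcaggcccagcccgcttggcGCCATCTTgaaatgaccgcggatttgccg
Peg3 intron peak 2, chr7:6728681-6728835: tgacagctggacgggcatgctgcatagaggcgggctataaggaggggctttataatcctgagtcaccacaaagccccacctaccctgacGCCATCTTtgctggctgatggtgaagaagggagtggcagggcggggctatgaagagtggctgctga

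Over the first 4000 bp of Peg3, 12 matches to the YY1 letters were found, all reading in the same direction. Of these, 7 lay in a longer-list peak of at least 1 library and 5 under a footprint in at least 1 library, 2 of them in both. The YY1 letters occurred in 5.98% and 5.62% of 300 bp windows around all peaks. The 2 matches with a footprint in both libraries are printed on the plus strand with 6 bases on each side.
Peg3 YY1 site, chr7:6728739-6728746: ccagcaAAGATGGCgtcagg
Peg3 YY1 site, chr7:6729589-6729596: ccctccAAGATGGCgccaac

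In the Prader-Willi and Angelman region, Ube3a was the only one of 6 members with a signal above 1. Mkrn3, a ubiquitin ligase that takes part in the timing of puberty, counted as open with 0.385 and 0.287, but the peaks of the 2 libraries did not overlap each other, and its mean lay at percentile 0.0425. Peg12, related to the Frat regulators of Wnt signalling, had a shorter-list peak of 0.437 in replicate 2 and a longer-list peak of 0.447 in replicate 1. Snrpn, which encodes a spliceosomal protein and carries the control region of the cluster at its promoter, had only longer-list peaks, 0.322 and 0.280. Ndn and Magel2, genes of the MAGE family expressed in brain, had no promoter peak in either list, though 1 base near Magel2 had a q-value of 0.046 in replicate 1. The region of 3256 kb held 8 shorter-list peaks in each library, or 0.246 per 100 kb, beside 1.86 and 1.83 over the genome. Several of these peaks lie near small nucleolar RNA genes (Gm22417, Gm23446 and Gm25210), a gene class with near-identical copies in this region, and whether copies shared reads was not tested.

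In the Kcnq1 domain the members split. Besides Cd81 and Tssc4, Cdkn1c, which encodes the cell cycle inhibitor p57, was open with 4.51 and 3.94 (4.22 ± 0.403), at percentile 38.1. Ascl2, a transcription factor of placenta and intestinal stem cells, had longer-list peaks only (0.537 and 0.444), Phlda2, a brake on placental growth, had a longer-list peak in replicate 1 only (0.447), and the transporter gene Slc22a18 had none. Kcnq1ot1, the noncoding RNA that controls the domain and no member of the list, had 6.03 and 7.01 at its strongest promoter peak. A second Kcnq1ot1 promoter peak, richer in CpG, had 0.832 and 0.822. The strongest peak away from start sites was chr7:143505961-143506120, with 2.77 and 1.74, in intergenic DNA. Between Cdkn1c and Slc22a18 lay a row of peaks with the general CTCF pattern under footprints in both libraries, and 3 of the sites are shown on the minus strand for comparison. The first was in shorter-list peaks of 1.79 and 1.15, the second of 1.91 and 0.933, and the third of 1.58 in replicate 1, with a longer-list peak in replicate 2.
Cdkn1c upstream site 1, chr7:143464080-143464091: caagtcggCCACCAGGGGGCagcatgaa
Cdkn1c upstream site 2, chr7:143466498-143466509: gtctctgaCCACCAGGGGGCagaatgac
Cdkn1c upstream site 3, chr7:143470160-143470171: gaccttggCCAGCAGGCGGCgcccaggt

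In the Dlk1-Dio3 cluster no member had a shorter-list promoter peak in either library. Dlk1 (a noncanonical Notch ligand), Rtl1 (a placental gene derived from a retrotransposon) and Meg3 (a maternally expressed noncoding RNA) had no promoter peak in either list, and Dio3, which inactivates thyroid hormone, had a longer-list peak in replicate 1 alone (0.331). The cluster held 4 and 3 shorter-list peaks in 848 kb. One peak lay in an exon of Dlk1 (0.850 and 0.972). Another lay in an intron of Meg3 (0.859 and 0.515), and its sequence is shown from replicate 2 because it holds the general CTCF pattern, in capitals as the reverse complement, under a footprint in replicate 1 only. With the start sites of the comprehensive annotation, Dlk1 and Meg3 both counted as open.
Meg3 intron peak, chr12:109542987-109543106, plus strand: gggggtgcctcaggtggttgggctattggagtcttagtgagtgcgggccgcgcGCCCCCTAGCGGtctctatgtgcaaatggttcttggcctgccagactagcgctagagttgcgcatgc

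Peg10, derived from a retrotransposon, and Sgce, which encodes epsilon-sarcoglycan, start 98 bp apart on opposite strands and share their promoter peaks. The signal was 0.761 and 0.731 (0.746 ± 0.0212), at percentile 2.69. A peak in the Peg10 intron was stronger in both libraries, with 3.42 and 3.44. The stretch between the starts holds the ZFP57 letters and the intron peak the SP and KLF letters, in capitals, both on the plus strand.
Peg10 and Sgce, chr6:4747208-4747305: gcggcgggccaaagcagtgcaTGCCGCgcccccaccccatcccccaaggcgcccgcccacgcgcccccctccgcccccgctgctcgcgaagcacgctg
Peg10 intron peak, chr6:4749241-4749460: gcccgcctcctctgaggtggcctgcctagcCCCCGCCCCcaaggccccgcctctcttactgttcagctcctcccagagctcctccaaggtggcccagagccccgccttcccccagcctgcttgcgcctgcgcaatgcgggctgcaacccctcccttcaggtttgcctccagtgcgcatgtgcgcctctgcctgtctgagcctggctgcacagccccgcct

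Among the single-gene loci, Mest, a gene of the hydrolase family tied to fetal growth, had 1.03 and 0.509 (0.769 ± 0.368), with the lowest centred log2 ratio among the open members, -0.84. Plagl1, a zinc-finger regulator of a network of imprinted genes, had 0.743 and 0.626 (0.684 ± 0.0824). Grb10, an adaptor that damps insulin signalling, had no promoter peak in either list but an intron peak of 1.49 and 0.711. Another Grb10 intron peak, chr11:12025805-12025980, had 0.716 in replicate 1, with 26 CpG in its 300 bp window. It overlapped a longer-list peak of 0.417 in replicate 2. Nap1l5 (a nucleosome assembly retrogene), Nnat (neuronatin, of the nervous system) and Rasgrf1 (a Ras activator of neurons) had no promoter peak in either list. The peaks around Nnat included those at the start of its host gene Blcap (3.51 and 3.13). Nap1l5 and Rasgrf1 had no shorter-list peak in the gene and the 10 kb on each side.

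Gnas, which encodes the stimulatory G protein alpha subunit, uses several alternative promoters with different imprinting. Only the downstream ones were open. The most upstream start, chr2:174284320, had a longer-list peak in replicate 1 alone (0.501), and the next, at 174297859, had none in either library. Between these starts, near a start of the gene Nespas, lay a longer-list peak of 0.653 in replicate 1. It overlapped a shorter-list peak of 0.809 in replicate 2. This stretch held the general CTCF pattern under a footprint in both libraries. The start at 174327768, the alternative first exon called 1A, which carries a germline DMR, had 1.48 and 1.30. The group of starts from 174330006, which serve the broadly used transcript, had 3.05 and 2.24 (2.65 ± 0.571), at percentile 22.8. An intron peak upstream of both, between the starts at 174297859 and 174327768, chr2:174312221-174312420, had 2.68 and 2.02.

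**Figure D3:**
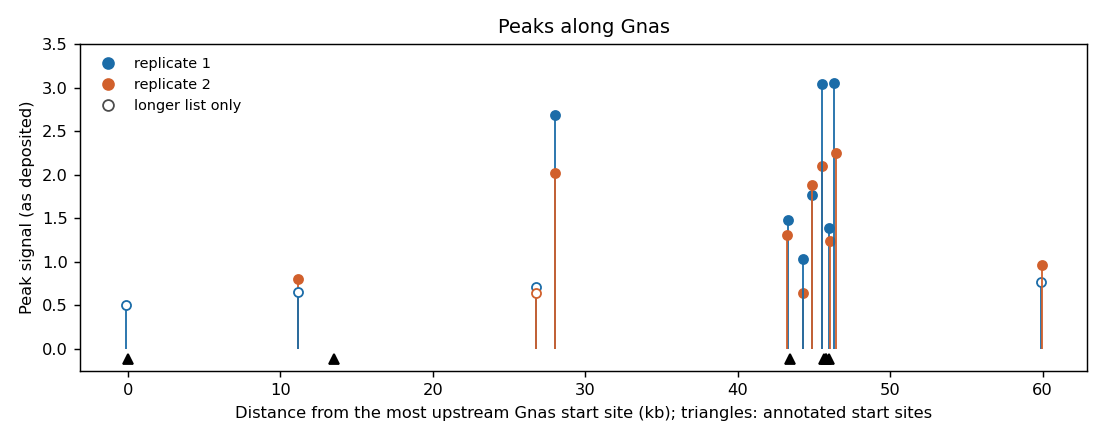
Signal of each peak along Gnas in replicate 1 (blue) and replicate 2 (orange), by distance from the most upstream start site in kb; triangles are annotated start sites, and outlined points are peaks of the longer list only. The peaks gather at the downstream starts, up to 3.05 in replicate 1. The most upstream starts have at most 0.501, and a peak between them reaches 0.809 in replicate 2.

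Impact, which limits activation of the stress kinase GCN2, had 3.23 and 3.56 (3.39 ± 0.230), and its first intron held a peak of 3.18 and 3.81. With the upstream edge of the gene record in place of the annotated start site, the Impact signal was 1.10. Zrsr1, a splicing factor retrogene in an intron of Commd1, had 3.48 and 3.05 (3.26 ± 0.307), or a mean of 1.34 with a window of 500 bp, which leaves out the strongest peak. The strongest Zrsr1 peak lay inside the gene, downstream of its start site. The 300 bp window at this peak held the 10-letter palindrome of the factor NRF1. Of open protein-coding genes, 2.79% held it in the window at their strongest promoter peak. Host and retrogene thus both had an open promoter, the host with the higher signal in both libraries.

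Members were grouped by whether a germline DMR is known at the promoter, from general knowledge and with earlier results of these data known. With a promoter DMR, 9 of 13 were open (69.2%, exact binomial 95% interval 38.6 to 90.9). Without it, 7 of 21 were open (33.3%, interval 14.6 to 57.0), beside 27.1% of all genes and 53.5% of protein-coding genes. The intervals cover counting error only, overlap each other and both hold the share of protein-coding genes. The mean signals of the 9 ran from 0.684 (Plagl1) through a median of 0.783 to 3.39 (Impact), and none was above 5. The median depends on the window: over the same 9 members it was 2.65 with 2500 bp, which takes in the Peg10 intron peak, and that of the members without a DMR stayed at 6.54. Those of the 7 ran from 0.336 (Mkrn3) through a median of 6.54 to 11.8 (Tssc4), and 4 were above 5. The ranges overlap, since Mkrn3 was the lowest of all and Igf2r and Cdkn1c lay just above Impact. These ranges cover members only. Kcnq1ot1, the controlling RNA of the Kcnq1 domain, is no member, was not grouped, and had 6.03 and 7.01 at its strongest promoter peak. The 300 bp window at that peak had 5 CpG in replicate 1 and 7 in replicate 2, without the letters TGCCGC. Another Kcnq1ot1 promoter peak, with 32 CpG and these letters in its window, had 0.832 and 0.822. Peg10 and Sgce share a peak and are not independent. By the copy expressed, 6 of 12 maternally expressed members were open (50%) with a median of 6.86, and 9 of 20 paternally expressed members (45%) with a median of 0.769, both shares near that of protein-coding genes. With 2500 bp the median of the same paternally expressed members was 2.04. The copy expressed is that of known imprinting, which for Ube3a is that of neurons, and it was not measured in thymus. The 4 members above 5 (Tssc4, Ube3a, Commd1 and Cd81) are all in the maternally expressed group. Whether they are expressed from 1 copy or both in thymus was not tested. The groupings overlap, since 11 of the 13 members with a promoter DMR are paternally expressed and the other two are Gnas and Grb10. Among paternally expressed members, 8 of 11 with a promoter DMR were open and 1 of 9 without (Mkrn3).

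The letters TGCCGC were in the window at the strongest promoter peak, in at least 1 library, for 6 of 9 open members with a germline DMR (Airn, Peg3, Peg10, Sgce, Mest and Plagl1) and for 1 of 7 without (Commd1), beside 27.6% of open protein-coding genes. Peg10 and Sgce share their strongest peak, so the same window is counted for both. Gnas, Impact and Zrsr1 had none of these letters in the window at their strongest peak. The strongest Gnas peak lies at the broadly used starts and not at exon 1A. The windows at 2 of the 6 Gnas promoter peaks of each library held the letters, as did windows at intron peaks of Impact. In all shorter-list peaks of the 16 clusters the letters were in 20.6% of 97 windows and 22.6% of 84, beside 13.7% of all peaks in each library. The general CTCF pattern was in 20.6% and 19% of cluster windows, beside 25.5% and 20.3% of all peaks. Of 28 such matches in peaks of either list, 12 lay under a footprint in both libraries and 11 in neither. The median number of CpG in the windows was 18 at the open members with a germline DMR, and 25 both at those without and at open protein-coding genes.

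Counted over each gene and the 10 kb on each side, the median member had 2 peaks (2.5 in replicate 1 and 1 in replicate 2), beside 0 over all genes and 2 over protein-coding genes. The density varied widely between clusters. It was 15.8 and 12.3 peaks per 100 kb around Impact, 9.41 and 8.47 around Zrsr1 and Commd1, 8.49 and 10.9 around Gnas and 5.57 and 4.67 in the Kcnq1 domain. The Prader-Willi and Angelman region and the Dlk1-Dio3 cluster (0.472 and 0.354) lay under the genome's 1.86 and 1.83 in both libraries, as did Nap1l5 and Rasgrf1 with no peak. Above the genome's values in both libraries lay 10 of the 16 clusters. The cluster stretches are drawn around genes, whereas the genome's values cover all sequence, so the measures are not fully alike.

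**Figure D4:**
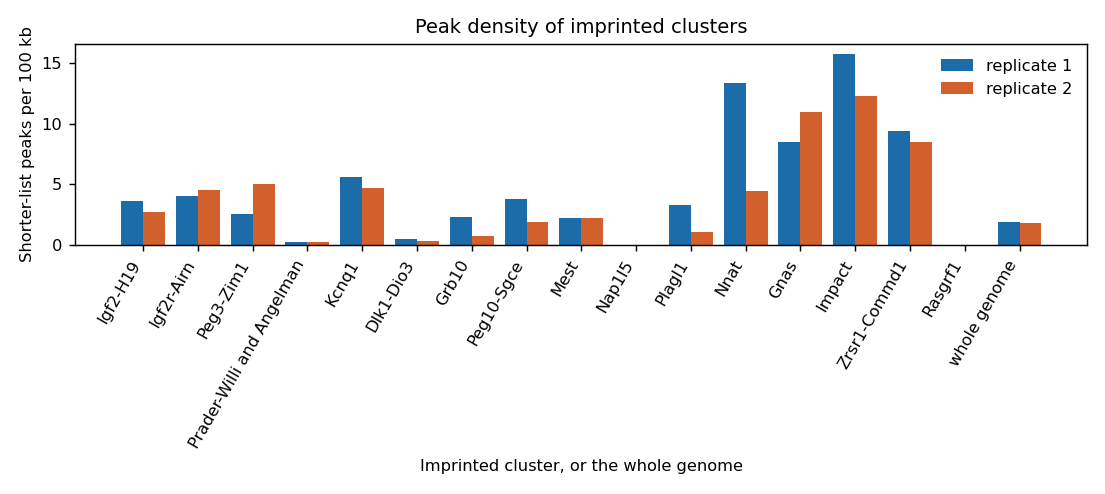
Shorter-list peaks per 100 kb in each imprinted cluster, from 10 kb before the first member to 10 kb after the last, in replicate 1 (blue) and replicate 2 (orange), with the whole genome at the right. Bars start at 0, and Nap1l5 and Rasgrf1 have no peak; the Prader-Willi and Angelman region (0.246) is the lowest of the clusters that have any.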

How the data were processed

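The labels give 1 group of 2 libraries, with replicate numbers from the descriptions. Per the file notes, each deposited file came from 1 library on mm10; aligner, peak caller and thresholds: not given in the sources used here. Every peak has 1 signal value, deposited by the authors, in whole multiples of 0.00895 (replicate 1) and 0.00652 (replicate 2), within 0.1 steps. The deposited footprints all carry the score 0.01, so only positions were used. The deposited q-values cover base runs under 0.05.

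Sequences and coordinates, counted from 1, are from GRCm38.p6, the C57BL/6J reference, whose chromosome lengths fit mm10; the animals also carry CAST DNA, and its effect on alignment was not tested. Genes are from the GENCODE vM21 basic annotation. Overlap means at least 1 bp. Python 3.11.15, numpy 2.4.6 and scipy 1.17.1 were used, and the calls were checked on simulated data. Members and lists, and the grouping by germline DMR from general knowledge, were chosen with earlier results of these data known. All members are named, in full those with a promoter peak in both libraries.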

Additional observations from a re-analysis of the deposited data

How the results depend on the processing

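The count of 16 open members came to 15 with a 500 bp window (without Peg3) and 18 with 2500 bp (with H19 and Meg3). The count was 16 with the peak centre in the window. With the upstream edge of the gene record as the only start, the count was 13 (without Gnas, Mest and Plagl1). For Mest, Plagl1 and Impact, that edge is not a start site of the annotation used. The count dropped to 10 with the stronger 50% of peaks, which leaves out Mest, Mkrn3, Peg10, Peg3, Plagl1 and Sgce, whose signals all lie below that cut. It was 18 with the comprehensive annotation, an alternative chosen after seeing the data. Each library alone gave 16 to 17 open members and 17 to 19 with a footprint. The median of 2 peaks per span became 1 with no flank and 0 with the stronger 50% of peaks, which both count fewer peaks, and was 1 to 2.5 with 1 library alone, the lower value from replicate 2; the cause was not tested. Signals moved by more than 1 SD for Zrsr1 with 500 bp (1.34), Peg10 and Sgce with 2500 bp (3.43, the intron peak) and Impact with the upstream edge of its gene record (1.10). No paired analysis was possible because there is 1 group. Depth is unknown, so a promoter without a peak is not shown to be closed.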

Other observations

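Among 52 other genes listed as imprinted and found in the annotation, 27 had an open promoter (51.9%). The background was 27.1% of all genes and 53.5% of protein-coding genes. The median mean signal of the 27 was 3.02, beside 5.59 for open protein-coding genes. The highest were Inpp5f (16.7 ± 2.90, SD, n = 2), Dhcr7 (16.6 ± 0.700), Nap1l4 (14.9 ± 0.372), Zfp597 (8.42 ± 0.342) and Copg2 (8.24 ± 1.43), and 17 had no promoter peak in either list, the first in the alphabet being Calcr, Cntn3, Dcn, Ddc and Dlx5. Copg2 lies beside Mest, and Nap1l4 and Dhcr7 beyond the members of the Kcnq1 domain. Zrsr2, counted among the open ones (3.93 and 3.83), lies on chromosome X, and the imprinting of the listed genes was not checked.

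Of 12 genes whose proteins set or keep imprints, 9 had an open promoter (75%, exact binomial 95% interval 42.8 to 94.5, which holds the 53.5% of protein-coding genes; 27.1% of all genes), with a median of 7.49. Dnmt1, the maintenance DNA methyltransferase, had 11.9 ± 1.83, its partner Uhrf1 10.8 ± 1.04, Ctcf 10.2 ± 0.553, Trim28 6.73 ± 0.868 and the zinc-finger gene Zfp445 3.42 ± 0.0529. The 3 without a promoter peak in either list were Zfp57, Dppa3 and Ctcfl, genes known for roles in embryo and germ line.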
